A study of Mus musculus with 6 samples.

Results

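*Fcer1g*, *Fcgr2b*, *Fcgr3*, *Fcgr4*, *Inpp5d*, *Itgb2*, *Ptprc* and *Lilrb4a* encode Fc receptors, an integrin chain and adaptors or phosphatases of immune cells, which in brain are carried mainly by microglia. They were taken by name as the probe sets with 1 annotated symbol that is one of the 8 (*Lilrb4a* under its older symbol Lilrb4), which gave 116 of 58919 tested probe sets and 8 of 5017 tested genes. Another 6 probe sets of *Lilrb4a* also carry a second symbol and were left out. Of the 5017 genes, 4918 lie on chromosomes 1, 10, 11, 12 and 13. Shares given for all genes or the whole table therefore do not cover the genome. Total RNA of mouse brain was profiled on a whole-transcript array read by exon probe sets, on 3 knockout arrays of genotype APPPS1-FVBxABCC1 and 3 control arrays of genotype APPPS1-FVB. All 6 thus carry APPPS1, which is mutant human APP and mutant human presenilin 1 under a *Thy1* promoter that is active in neurons, and such mice form amyloid plaques. Age, sex and batch are not labelled, nor whether each array is a mouse of its own. The p-values therefore cover the spread among these 6 samples, part of which may be technical. *Abcc1*, the gene targeted in the knockout, encodes an export pump of the ABC transporter family. It was not analysed here and so did not serve to check the labels.

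Microglia are the resident macrophages of the brain and gather around amyloid plaques. Activating Fc receptors bind IgG and signal through the gamma chain encoded by *Fcer1g*, whose tyrosine motif recruits the kinase SYK. The inhibitory receptor of *Fcgr2b* acts against them by recruiting the lipid phosphatase SHIP-1, the product of *Inpp5d*. *Itgb2* encodes the CD18 chain shared by the leukocyte integrins, *Ptprc* the tyrosine phosphatase CD45, and *Lilrb4a* an inhibitory receptor of myeloid cells.

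None of the 116 probe sets and none of the 8 genes differed between knockout and control at an adjusted p below 0.05, and 6 of the 8 gene differences changed sign when the array labelled knockout 2 was left out. On that array all 8 genes were at their lowest of the 6 arrays, while the mean of knockouts 1 and 3 lay above the control mean in 7 of them. The lowest adjusted p was 0.424 among the member probe sets and 0.306 among the member genes (limma with Benjamini-Hochberg adjustment over all probe sets or genes). Over the whole table, 0.00509% of probe sets (3 of 58919) and 0% of gene means passed. At an unadjusted p below 0.05 stood 5 of the 116, or 4.31%, beside 7.69% of all tested probe sets.

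Signals are the deposited log2 values, and a gene's level is the mean of its probe sets on an array, so a difference of 1 is a factor of 2. Levels of different genes cannot be compared on this scale, because each probe set has its own brightness. As a yardstick for silence, the 181 probe sets of 153 olfactory receptor genes had a median signal of 3.38 and a 90th percentile of 4.64. Of the member probe sets, 91 of 116 had a mean signal above that percentile. Of the measured brain markers, all 4 neuronal, all 8 astrocytic and both oligodendrocyte genes lay above it. In whole brain RNA, fewer microglia and less of a transcript per microglial cell cannot be told apart.

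*Fcer1g*, the signalling chain that the activating Fc receptors share, was similar in the controls and spread in the knockouts. It read 7.60, 6.78 and 7.44 in knockouts 1, 2 and 3, against 7.33, 7.44 and 7.33 in controls 1, 2 and 3. Knockout 1 was the highest array and knockout 2 the lowest, so the groups overlapped. The means were 7.27 ± 0.43 in knockouts and 7.37 ± 0.07 in controls (SD, n = 3 each), a log2 difference of -0.09 with a 95% interval of -0.53 to 0.34 (limma adjusted p = 0.857). All 5 of its probe sets were above the olfactory yardstick, and knockout 2 was the lowest array at 5 of 5. At its brightest probe set, 10360071, the knockouts read 8.70, 8.07 and 8.75 and the controls 8.45, 8.55 and 8.51.

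Of the IgG receptors, *Fcgr3*, an activating receptor that uses the gamma chain, had the same shape across the knockouts. Its gene mean was 6.30, 5.54 and 6.26 in the knockouts and 6.35, 6.26 and 5.81 in the controls. Control 3 was low as well, which came from a single probe set, 10360045, with 5.19, 5.54 and 2.43 in controls 1, 2 and 3. The log2 difference was -0.11 (95% interval -0.61 to 0.40, limma adjusted p = 0.862), and -0.09 without that probe set, an alternative added after seeing the data.

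*Fcgr4*, the other activating receptor, was not clearly detected. None of its 4 probe sets had a mean signal above the olfactory percentile, and their means lay between 3.13 and 3.72. The gene mean was 3.55, 3.11 and 3.19 in the knockouts and 3.64, 3.48 and 3.64 in the controls. Knockouts 2 and 3 were below every control and knockout 1 was not. The log2 difference of -0.31 (95% interval -0.57 to -0.04) had the smallest unadjusted p of the members, 0.0276, where 14.1% of all gene means were below 0.05, and its limma adjusted p was 0.306. At this brightness the value describes dim probe sets and not a measured level of the receptor.

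The inhibitory receptor *Fcgr2b* had the narrowest distance of knockout 2 from the other arrays among the members. Its gene mean was 5.97, 5.82 and 6.12 in the knockouts and 5.83, 5.93 and 5.82 in the controls. Knockout 2 lay only 0.12 below the mean of the other arrays, against 0.65 for *Fcer1g* and 0.66 for *Fcgr3*, and it was the lowest array at 1 of 11 probe sets. *Fcgr2b* had the only positive log2 difference among the members, 0.11 (95% interval -0.08 to 0.29, limma adjusted p = 0.576), and 8 of its 11 probe sets were higher in the knockouts. Its neighbours *Fcgr3* and *Fcgr4* are related in sequence, and whether probes of these genes share signal was not tested.

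*Inpp5d*, whose product removes a phosphate from the lipid that Fc receptor signalling makes, was measured by 32 probe sets, 30 of them above the olfactory percentile. The gene mean was 7.25, 6.62 and 7.16 in the knockouts and 7.05, 7.10 and 6.98 in the controls. Knockouts 1 and 3 were thus both above all controls, and knockout 2 below all of them. The log2 difference was -0.04 (95% interval -0.38 to 0.31, limma adjusted p = 0.940). Probe set 10348251 of this gene had the smallest p of all member probe sets, with 3.79, 3.79 and 3.70 in the knockouts and 4.50, 4.27 and 4.39 in the controls. That is a log2 difference of -0.63 (limma adjusted p = 0.424) at a signal below the olfactory percentile, while probe set 10348272 stood at 0.43. Among its probe sets, 20 were lower and 12 higher in the knockouts.

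*Itgb2* had the widest spread among the knockouts. Its gene mean was 6.47, 5.45 and 6.33 in the knockouts and 6.32, 6.32 and 6.15 in the controls. Knockouts 1 and 3 were the 2 highest arrays, and knockout 2 lay 0.87 below the mean of the other arrays. The means of 6.08 ± 0.55 in knockouts and 6.27 ± 0.10 in controls (SD, n = 3 each) gave a log2 difference of -0.18 (95% interval -0.73 to 0.37, limma adjusted p = 0.765). Knockout 2 was the lowest array at 15 of its 17 probe sets. At the brightest, 10364276, the knockouts read 8.17, 6.92 and 7.81 and the controls 8.05, 8.25 and 7.89.

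*Ptprc* and *Lilrb4a* also had knockout 2 lowest and knockout 1 highest, with more probe sets near background. Knockout 3 minus the control mean was -0.04 in *Ptprc* and -0.11 in *Lilrb4a*, so knockout 3 was not high here. The gene mean of *Ptprc* was 5.82, 5.06 and 5.63 in the knockouts and 5.63, 5.67 and 5.72 in the controls, a log2 difference of -0.17 (95% interval -0.57 to 0.22, limma adjusted p = 0.683). Its 33 probe sets had mean signals from 2.70 to 8.24 and differences from -0.90 to 0.79, and 24 exceeded the olfactory percentile. *Lilrb4a* read 4.25, 3.49 and 3.94 in the knockouts and 3.94, 4.03 and 4.16 in the controls, a log2 difference of -0.15 (95% interval -0.55 to 0.24, limma adjusted p = 0.724). Only 4 of its 9 probe sets exceeded the olfactory percentile. Its brightest, 10363087, had 5.88, 4.75 and 5.69 in the knockouts and 5.60, 6.60 and 6.26 in the controls, where control 1 lay within the range of the knockouts. Among the 6 probe sets that carry a second symbol beside Lilrb4, knockout 2 was the lowest array at 4.

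**Figure D1:**
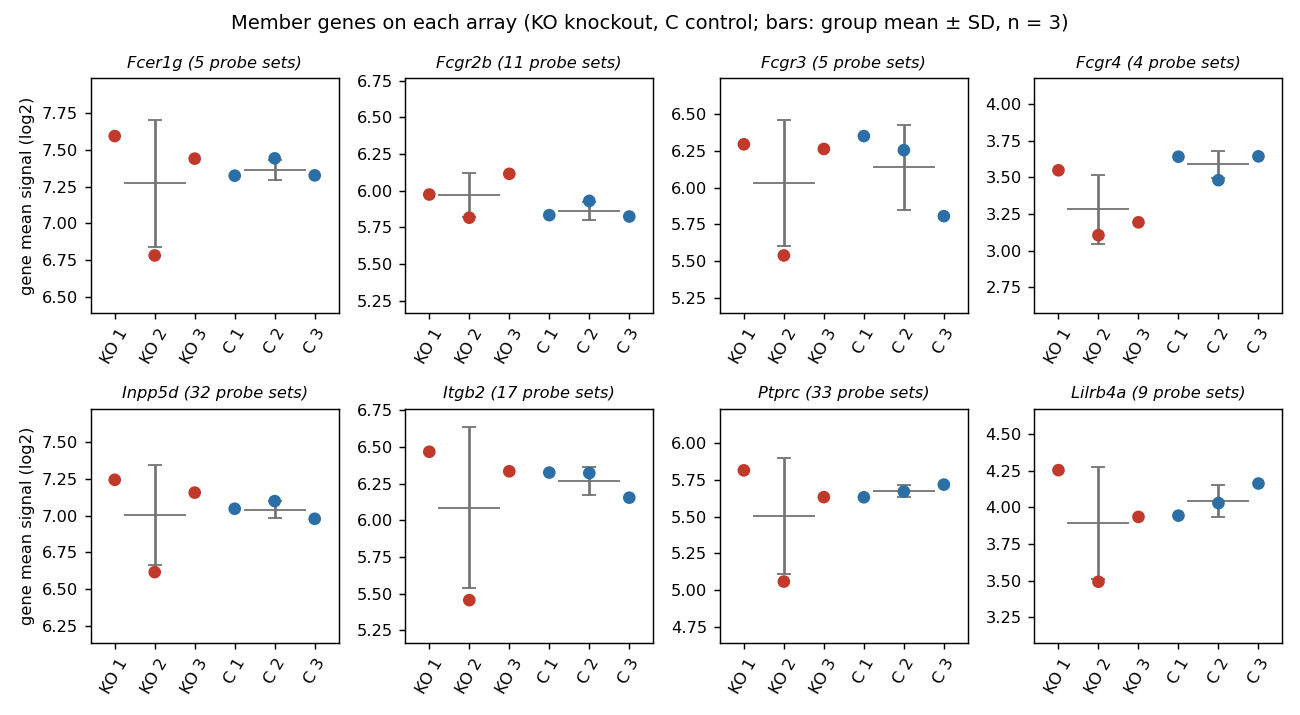
Gene mean signal (log2) of each member on the 3 knockout arrays (KO, red) and 3 control arrays (C, blue), with grey bars for the group mean ± SD (n = 3) and axes of the same height in log2 units in every panel. Knockout 2 is the lowest point in all 8 panels, by 0.87 below the mean of the other arrays in *Itgb2* and by 0.12 in *Fcgr2b*.

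The 8 members together had a median log2 difference of -0.13, with 7 lower and 1 higher in the knockouts, beside a median of -0.0044 and 51.4% lower over all genes. Probe by probe, 79 of 116 were lower and 36 higher. No member had all knockouts beyond all controls, where 20.2% of all genes did. Without knockout 2 the median became 0.14, and 7 members were higher and 1, *Fcgr4*, lower, beside 51.6% lower over all genes. In that fit the log2 differences were 0.15 for *Fcer1g*, 0.18 for *Fcgr2b*, 0.14 for *Fcgr3*, 0.16 for *Inpp5d* and 0.13 for *Itgb2*. *Ptprc* and *Lilrb4a* were at 0.05 each and *Fcgr4* at -0.22. None passed, with limma adjusted p from 0.394 to 0.882. In *Fcgr2b*, *Inpp5d* and *Itgb2* both remaining knockouts were above all controls, a count of 3 of 8 upward where 15.3% of all genes did the same. For *Itgb2* this rests on 6.3335 in knockout 3 against 6.3247 in control 1, nearly a tie. For *Fcgr2b* it rests on 5.97 in knockout 1 against 5.93 in control 2. By brightest probe set without knockout 2, however, the median was -0.07, with 6 of 8 lower, so the sign for these 2 knockouts also depended on how a gene was summarised.

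**Figure D2:**
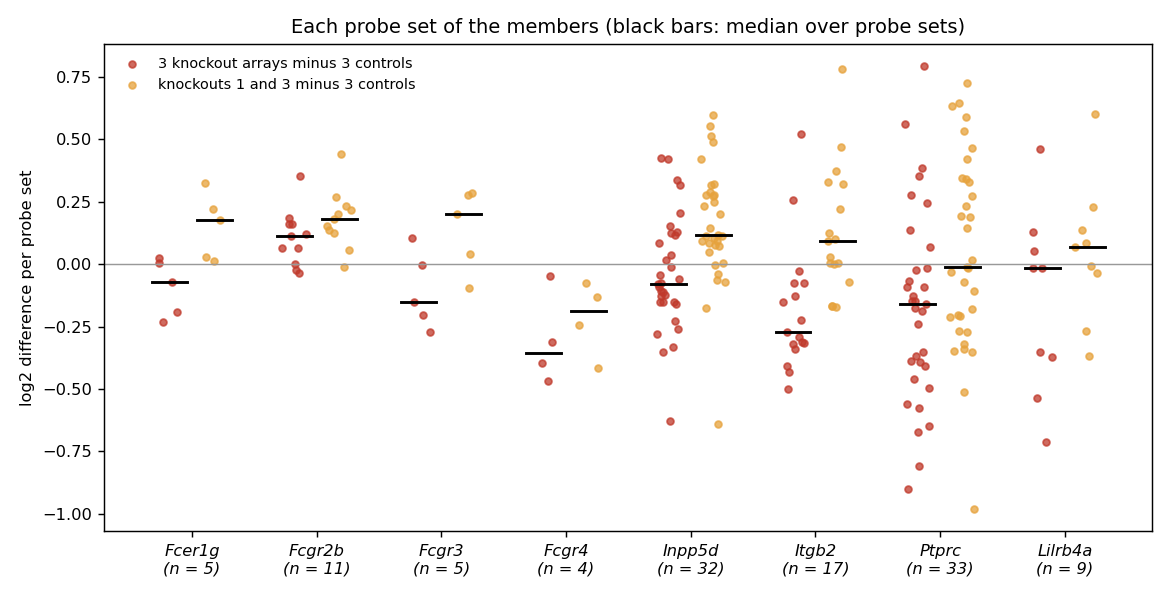
Log2 difference of each member probe set, for all 3 knockout arrays minus the 3 controls (red) and for knockouts 1 and 3 minus the 3 controls (orange), with black bars at the median over a gene's probe sets. With knockout 2 left out, 79 of 116 probe sets are higher in the knockouts, against 36 with it, and the 4 of *Fcgr4* stay below 0.

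The low signal of knockout 2 ran along the genes. It was the lowest array at 75 of the 116 member probe sets, or 64.7%, beside 15.8% of all tested probe sets. Of the 91 brighter than the olfactory percentile it was lowest at 65. By gene mean it was lowest in 8 of 8 members, beside 18.8% of all genes. Its gene means lay below the mean of the other arrays by a median of 0.60 over the members, while the median over all 5017 genes was 0.0021. Knockout 1 was the highest array in 5 of the 8 members, beside 12.5% of all genes.

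**Figure D3:**
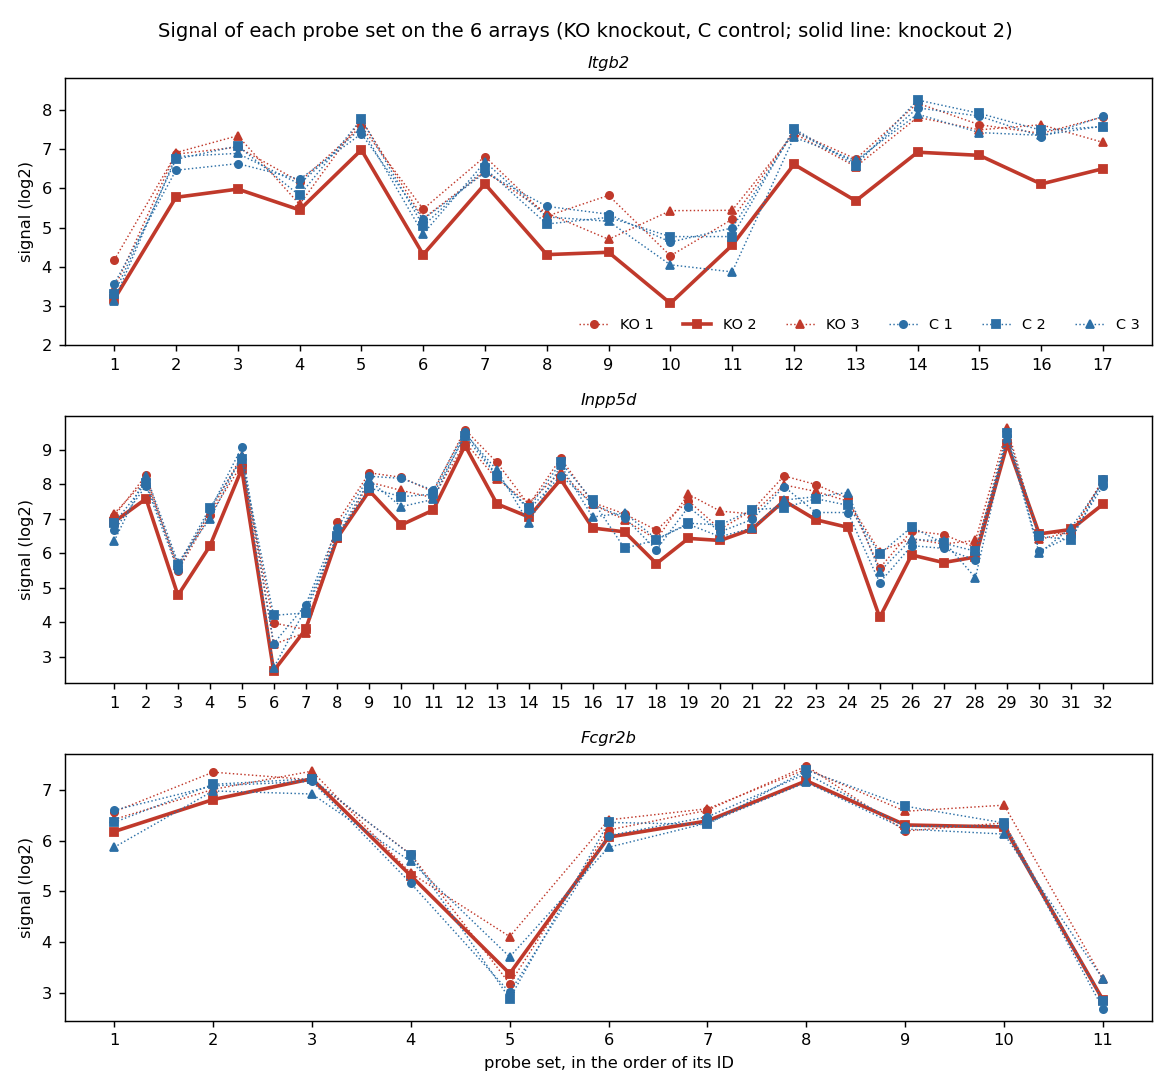
Signal (log2) of every probe set of *Itgb2* (17), *Inpp5d* (32) and *Fcgr2b* (11) in the order of their IDs, on the knockout (KO, red) and control (C, blue) arrays, with knockout 2 as a solid line. Knockout 2 is lowest at 15 of 17 probe sets of *Itgb2* and 23 of 32 of *Inpp5d*, and runs among the other arrays in *Fcgr2b*, lowest at 1 of 11.

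On the scale of the whole array, knockout 2 was at the edge of the 6 arrays by small margins. Its median of the tested probe sets was 7.09, and the other arrays lay between 7.04 and 7.07. The control features had a median of 4.29 on knockout 2, of 4.27 and 4.20 on knockouts 1 and 3, and of 4.09 to 4.16 on the controls. Its mean correlation with the other arrays was 0.9859, where theirs ran from 0.9862 to 0.9881. Limma's array weight from the gene means was 0.669, the lowest of the 6, with 0.727 for control 3.

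A distance of 0.5 on the log2 scale below the mean of the other 5 arrays was then used to see which genes shared the low signal, a limit chosen after the values were seen. On knockout 2, 31 of 5017 genes, or 0.618%, were at least that low, and 5 of the 8 members were among them, namely *Itgb2*, *Fcgr3*, *Fcer1g*, *Ptprc* and *Lilrb4a*. *Inpp5d* followed at 0.49. On the other arrays 3 to 10 genes were that low, with 0 members. At least that far above the other arrays were 18 genes on knockout 2 and 4 to 17 on the others, with 0 members in each case. Only a part of the other 26 is named here, picked after the values were seen, and no test of a shared theme was made. Among them the chemokine genes *Ccl3*, *Ccl6* and *Ccl9* had distances of -2.64, -2.31 and -0.53. *Ctse*, a cathepsin, was at -1.28, *Lyz2*, lysozyme, at -1.19, *Slc11a1*, a metal transporter of phagosomes, at -1.06, *Cd68* at -0.87 and *Pld4* at -0.74. *Ly86*, which encodes the partner of a Toll-like receptor homologue, was at -0.75, *Plek*, a target of protein kinase C in blood cells, at -0.61 and *Havcr2*, the immune checkpoint receptor TIM-3, at -0.63. *Gfap*, the intermediate filament of astrocytes, was also among them at -0.87, as was *Aurkb*, a mitotic kinase, at -0.52. So were *Adat3* at -1.36, *Catspere2* at -0.89, *Hddc2* at -0.68, and *Ugt1a7c* and *Trim17* at -0.51 each. *Gfap* also spread among the controls, with 9.955, 9.59 and 10.42 in controls 1, 2 and 3 against 9.02 on knockout 2.

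By a rule set for likeness, the 5 genes whose gene means over the 6 arrays correlated best with the mean profile of the members were *Adat3*, *Plek*, *Ctse*, *Ccl6* and *Ccl3*, out of 5009 other genes. Pearson's r was 0.994, 0.992, 0.987, 0.985 and 0.984 in that order. Each had knockout 2 as its lowest array, and over 6 arrays these values rest on that array. *Ccl3* read 7.70, 4.72 and 7.58 in the knockouts and 7.15, 7.25 and 7.12 in the controls. *Adat3*, an editing enzyme of transfer RNA, was measured by 1 probe set. The r was 0.891 for *Cd68*, 0.649 for *Gfap* and 0.466 for *Syk*.

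**Figure D4:**
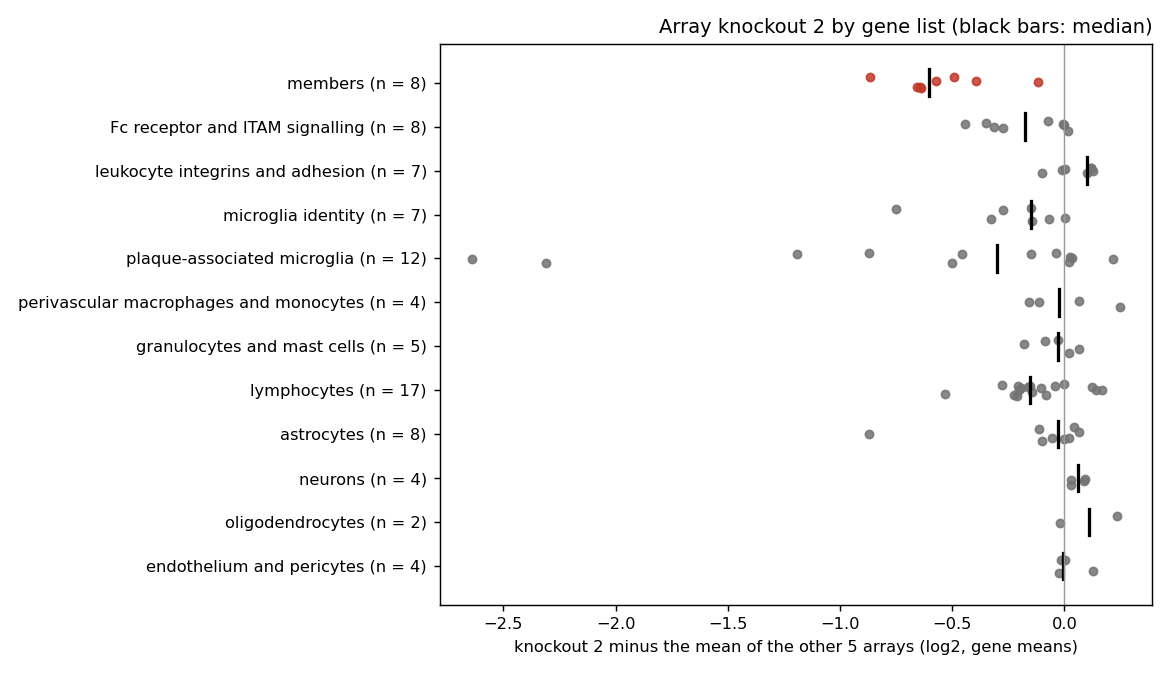
Knockout 2 minus the mean of the other 5 arrays (log2, gene means) for each measured gene of the members (red) and of 11 other gene lists (grey), with a black bar at each list's median and the number of measured genes in brackets. The median is -0.60 for the members, -0.30 for plaque-associated microglia and 0.06 for neurons. It is -0.15 for microglia identity, close to -0.17 for Fc receptor signalling and -0.15 for lymphocytes.

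The other parts of the pathway were sparsely covered by this table, whose genes lie almost all on chromosomes 1 and 10 to 13. Of 46 genes listed for Fc receptor and tyrosine-motif signalling 8 were measured, 4 lower and 4 higher in the knockouts, with a median log2 difference of -0.0020, beside -0.0044 over all genes, and 0 passed the test. *Pik3r5*, a regulatory subunit of a phosphoinositide 3-kinase, had 5.784 ± 0.155 in knockouts and 5.997 ± 0.133 in controls (SD, n = 3 each), a log2 difference of -0.21. *Lcp2*, an adaptor downstream of SYK, was at -0.11 and *Fyn*, a Src family kinase that neurons also use, at 0.06. *Syk* itself was at 0.01 (SE 0.06). The smallest limma adjusted p of the list was 0.368. Knockout 2 was the lowest array in 5 of these 8, beside 18.8% of all genes. Its distances had a median of -0.17, and *Cd84* and *Pik3cg* had the largest, at -0.44 and -0.35. Of 27 genes for leukocyte integrins and adhesion 7 were measured, 3 lower and 4 higher, with 0 passing, and knockout 2 was the lowest array in 0 of the 7. The integrin chains that pair with CD18 were not analysed here. The 3 smallest p in that list belonged to *Selp* at -0.09, *Pecam1* at 0.06 and *F11r* at 0.04.

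Microglial genes outside the members mostly had lower values in the knockouts, and 0 passed. Of 40 genes of microglial identity 7 were measured, 5 lower and 2 higher, with a median log2 difference of -0.18. *Sparc*, which astrocytes and endothelium also express, was at -0.18 (SE 0.05), *Rgs2* at -0.21 and *Adap2* at 0.13, with the smallest limma adjusted p of the list 0.231. The summed linear signal of the 7 was 3109 to 3395 in the knockouts and 3653 to 3868 in the controls, so the groups did not overlap, as in 20.2% of all single genes. *Sparc* alone supplied 64.3% of that sum in the knockouts and 63.7% in the controls. The other 6 genes summed to 1044 to 1248 in the knockouts, with the lowest value on knockout 2, and 1296 to 1420 in the controls. The brightest of these were *Rgs2*, at 8.91 in knockouts and 9.12 in controls, and *Ly86*, at 8.72 and 9.07. This sum therefore also rests on few genes. Knockout 2 was the lowest array in 5 of the 7, beside 18.8% of all genes. Its distances from the other arrays had a median of -0.15 and ran from -0.75 in *Ly86* to 0.0031 in *Adap2*. Of 37 genes of plaque-associated microglia 12 were measured, 10 lower and 2 higher, with a median of -0.12 and a smallest adjusted p of 0.412. *Cd68* had 7.20 ± 0.46 in knockouts and 7.61 ± 0.13 in controls, *Lyz2* 7.05 ± 0.63 in knockouts and 7.58 ± 0.09 in controls, and *Lgals3bp* 7.03 ± 0.28 in knockouts and 7.23 ± 0.12 in controls (SD, n = 3 each). The sum of all 12 was 3555 on knockout 2, 4120 and 4166 on knockouts 1 and 3, and 4105 to 4370 on the controls. *Timp2*, the brightest, supplied 24.9% of that sum in the knockouts and 24.7% in the controls. Without it the other 11 summed to 2562 to 3215 in the knockouts, lowest on knockout 2, and 3172 to 3241 in the controls. Knockout 2 was the lowest array in 6 of the 12. Its distances ran from -2.64 in *Ccl3* to 0.215 in *Igf1*, and *Hif1a*, *Ctsl* and *Cd63* were also slightly above the other arrays.

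Markers of other cells that could carry these receptors, or that make up the rest of the brain, had 0 genes past the test. Of 17 measured lymphocyte genes 4 had a gene mean above the olfactory percentile, and the summed signal of all 17 was 391, 371 and 411 in knockouts 1, 2 and 3 and 406 to 411 in the controls. Knockout 2 was thus low for this list too: it was the lowest array in 11 of the 17, beside 18.8% of all genes, with a median distance of -0.15. *Ighm*, the IgM heavy chain and the lymphocyte gene with the smallest p, was at -0.23 (SE 0.05, limma adjusted p = 0.215), followed by *Fcrla* at -0.22 and *Slamf1* at 0.15. Of 5 measured genes of granulocytes and mast cells 0 were above it, with sums of 77.2 to 79.0 in the knockouts and 76.3 to 84.8 in the controls, with *Epx*, *Fcer1a* and *Il1r2* at 0.09, -0.12 and -0.08 and with knockout 2 lowest in 1. The 4 measured genes of perivascular macrophages and monocytes summed to 441 to 479 in the knockouts and 497 to 550 in the controls, and 3 were above it. *Fn1*, which other cells also express, supplied 76.5% of that sum in the knockouts and 78.4% in the controls. Without it the other 3 genes summed to 106.0 to 111.2 in the knockouts and 108.6 to 119.1 in the controls, which overlap. *Fn1* was at -0.23, *F13a1* at -0.18 and *Mgl2*, the gene not above the olfactory percentile, at 0.28, with a smallest limma adjusted p of 0.230. Knockout 2 was the lowest array in 0 of the 4. The remaining lists hold cells of the nervous tissue and its vessels, and knockout 2 was the lowest array in 1 of 8 astrocyte genes and in 0 of the 4 neuronal, 2 oligodendrocyte and 4 vascular genes. Astrocyte genes summed to 8954 to 9478 in the knockouts and 9442 to 9811 in the controls. Among them *S100b* was at -0.21, *Gja1* at -0.15, *Ntsr2* at -0.17 and *Gfap* at -0.48 (SE 0.25, limma adjusted p = 0.427). Neuronal genes summed to 6437 to 6740 in the knockouts and 6399 to 6560 in the controls, with *Syt1* at 0.05, *Camk2b* at 0.04 and *Map2* at -0.03. The 2 oligodendrocyte genes *Aspa* and *Cnp* were at 0.16 and -0.05, and summed to 1306 to 1428 in the knockouts and 1334 to 1488 in the controls. The 4 vascular genes summed to 1258 to 1319 in the knockouts and 1255 to 1400 in the controls, with *Rgs5*, *Pecam1* and *Icam2* at -0.11, 0.06 and -0.02. The part of these cells in the members' differences was not tested.

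The stretches before the starts of 3 members are shown because *Fcer1g* and *Inpp5d* were low together on knockout 2 and *Fcgr2b* was closer to the other arrays. They are the 100 bases before the annotated start on the gene's own strand, from RefSeq on GRCm38.p6, and capitals mark AGGAAG, part of the sequence recognised by the myeloid transcription factor PU.1 and by other ETS family factors.
Fcer1g, chr1:171234350-171234449, minus strand: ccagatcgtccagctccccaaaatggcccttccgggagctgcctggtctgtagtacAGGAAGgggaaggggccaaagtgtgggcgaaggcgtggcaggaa
Inpp5d, chr1:87620212-87620311, plus strand: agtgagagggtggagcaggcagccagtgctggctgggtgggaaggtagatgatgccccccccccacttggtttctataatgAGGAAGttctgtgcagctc
Fcgr2b, chr1:170976072-170976171, minus strand: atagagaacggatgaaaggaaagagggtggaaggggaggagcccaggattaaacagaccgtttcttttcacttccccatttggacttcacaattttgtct
The search covered AGGAAG and its reverse complement CTTCCT in the 250 bases before each start, with overlapping matches counted. It found a match in 5 of the 6 members with a promoter in the table, all but *Fcgr2b*, and in 32.3% of 27018 genes of the table. The 5 include *Fcgr4*, which was not clearly detected. The match lies at position -44 in *Fcer1g* and -19 in *Inpp5d*, counted back from -1 at the base before the start. *Itgb2* and *Lilrb4a* were not searched. A match describes these letters in this window and is no evidence of binding. Other sequences that such factors may recognise were not searched. The shorter GGAA, the inner part of AGGAAG, also occurs in the *Fcgr2b* stretch, where it is not marked. The 3 stretches were picked by the values on knockout 2, and a link between the motif and those values was not tested.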

How the data were processed

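Brain RNA of 3 knockout and 3 control samples was hybridised to 1-colour arrays. The deposited values are log2 signals with 2 decimals; the submitters' processing notes name MAS5, and the scale was read from the values (1.69 to 14.41). Their scaling between arrays is not given. Of 65535 probe sets in the table used, 6616 were left out as control features, since their IDs precede all those with a symbol. Symbols came from the platform annotation, updated through RefSeq (GRCm38.p6). The array medians spanned 0.05, so no normalization was added. Knockout minus control was fitted with limma 3.58.1 in R 4.3.3 per probe set and per gene mean, two-sided, adjusted by Benjamini-Hochberg over all of them. In simulated data the fit per probe set called 3 of 67 changes of 1.5-fold, 24 of 67 of 2-fold and 41 of 66 of 4-fold. A probe set without a call may thus hide such a change. The fit per gene mean called 61 of 67, 67 of 67 and 66 of 66. Those genes were drawn from the whole table. Every member had an SE above the median of 0.062 over all gene means, from 0.079 in *Fcgr2b* to 0.236 in *Itgb2*. The recovery per gene mean therefore does not carry over to the members, and a member without a call may also hide such a change. The number of arrays limits the precision, and 0.1 is the smallest two-sided p of an exact permutation test at this size. Deviations of same-numbered arrays correlated between -0.08 and 0.02. These few values show no clear pairing by number but cannot exclude a weak one, and the main fit used none. Members and lists were chosen with earlier results of these data known. Named were all members, the 3 genes of smallest p in each other list, *Cd68*, *Gfap* and *Syk*, and the 5 genes most alike; exceptions are stated. The olfactory yardstick, the distance on knockout 2, the list sums without their brightest gene and the promoter motif were added after seeing the data.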

Additional observations from a re-analysis of the deposited data

How the results depend on the processing

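Under every alternative run, 0 member probe sets and 0 genes passed, and the 125 member values had limma adjusted p from 0.222 to 0.999. Leaving out 1 array gave 0 to 4 probe sets past the threshold over the whole table, where all arrays gave 3. The replicate block gave 0, a robust variance trend 21, leaving out the dimmest 1 in 3 probe sets 19, and quantile normalization 6. Each of the threshold of 0.1, the array weights and centring on the median gave 7. The cause was not tested. The replicate block changed no call among the members. Without 1 array the members' median log2 difference lay between -0.29 and 0.14, and only leaving out knockout 2 made it positive. That fit turned the sign of 6 members, with *Fcer1g* at 0.15, *Fcgr3* at 0.14, *Inpp5d* at 0.16, *Itgb2* at 0.13, *Ptprc* at 0.0503 and *Lilrb4a* at 0.0491. Over all fits without 1 array the ranges were -0.25 to 0.15 for *Fcer1g*, -0.27 to 0.14 for *Fcgr3* (0.0017 without control 1), -0.16 to 0.16 for *Inpp5d*, -0.37 to 0.13 for *Itgb2*, -0.33 to 0.0503 for *Ptprc*, -0.33 to 0.0491 for *Lilrb4a*, 0.032 (without knockout 3) to 0.18 for *Fcgr2b* and -0.44 to -0.22 for *Fcgr4*. *Fcer1g* also turned with array weights (0.012), by its brightest probe set (0.0033) and by that probe set without knockout 2 (0.22), and *Inpp5d* turned without the dimmest 1 in 3 (0.0068) and with array weights (0.031). Without knockout 2, 3 members had groups that did not overlap, against 0 with all arrays; this alternative and that of the brightest probe set without knockout 2 were added after seeing the data. The brightest probe set gave -0.71 for *Lilrb4a*, -0.43 for *Itgb2*, -0.27 for *Fcgr3* and -0.21 for the members' median, and the probe set median gave -0.19 for that median. Array weights brought the members' median to -0.048, with 3 higher and 5 lower. *Fcgr4* and *Lilrb4a* had no value without the dimmest 1 in 3 or by the brighter probe sets, so those medians cover 6 members. Dim signal limits *Fcgr4*, *Lilrb4a* and part of *Ptprc*.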
